A study of Mus musculus with 10 samples.

Results

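Cytotoxic T and NK cell genes, 10 in all, were followed in RNA-seq libraries of mouse osteocyte preparations. They were taken by gene name from the deposited table, 10 of 22548 genes, and all 10 passed the filter on low counts that left 16186 genes for testing. Cd3e, Cd4 and Cd8a mark T cells, Ncr1, Klrb1c and Klrk1 are receptors of natural killer (NK) cells, and Prf1, Gzma, Gzmb and Nkg7 encode proteins of the cytotoxic granule. The preparations came from femurs of male C57BL/6 mice, with an age of 8 wks and no engineered allele named in the labels. Whether this is the age at injection or at collection is not stated in the sources used here. The 5 MM mice had received Vk12598 cells, a murine myeloma line, by injection into the femur. The 5 No MM mice were controls without myeloma cells, and the study's methods name PBS as the control injection. Osteocytes were taken 6 weeks after injection by repeated collagenase and EDTA digestion of bone pieces from which the marrow had been removed. No cell sort is described, so the model is a digest that can keep other cells of the bone, and all MM mice carried the same myeloma line. There was 1 library per mouse, numbered 1 to 5 in No MM and 6 to 10 in MM.

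Cytotoxic lymphocytes kill infected or malignant cells on contact. A T cell recognizes its target through the T cell receptor and CD3 complex, with CD8 or CD4 as coreceptor, while an NK cell weighs signals from activating and inhibitory receptors. Either cell then releases granules in which perforin opens the way for granzymes, proteases that start cell death in the target. In myeloma, NK cells and cytotoxic T cells are known as the lymphocytes of the marrow that can attack the plasma cell tumor.

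Between 31099174 and 39466332 reads were counted per library, and values are given as CPM, the counts of a gene relative to the library total after TMM scaling. At this depth 3 counts corresponded to between 0.0709 and 0.114 CPM, and each of the 10 genes was above this level in every library. The osteocyte markers Dmp1, Sost, Mepe, Phex, Fgf23 and Pdpn were detected in every library, with a summed level of 308 to 2417 CPM in No MM and 382 to 1703 CPM in MM. Libraries No MM 3 and No MM 4 stood apart from the other 8 on the first principal component, which held 49.4% of the variance. Immunoglobulin genes took 26.6% and 29.0% of their counts and 0.637% to 3.86% in the others, so the libraries richest in plasma cell RNA were labelled as controls. The 7 plasma cell markers summed to 9265 and 9283 CPM in these 2 libraries and to 583 to 1266 CPM elsewhere. The 8 neutrophil markers summed to 6873 and 8075 CPM there, to 9840 CPM in MM 6 and to 22331 to 31880 CPM in the other 7 libraries. Differences of the 10 genes, of the ratios and of the gene lists are therefore given with and without No MM 3 and No MM 4.

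The 10 genes together summed to between 46.4 and 133 CPM in No MM and between 94.3 and 173 CPM in MM. By group mean, Nkg7 and Cd4 were the largest parts of these sums in both groups. The lowest sums were those of No MM 3 and No MM 4. The comparison of MM with No MM asks which genes differ in osteocyte preparations of myeloma-bearing bone. No member of the 10 reached an adjusted p under 0.05 in edgeR's quasi-likelihood test with Benjamini-Hochberg adjustment, and among all tested genes the share that passed was 0%. At an unadjusted p under 0.05, Ncr1 and Klrk1 were higher in MM and none of the 10 was lower, against 3.81% of all tested genes higher and 10.3% lower. DESeq2 gave 0 of 10 at its adjusted threshold, where it called 1.27% of the genes it gave an adjusted p, and 3 of 10 higher at an unadjusted p under 0.05, against 5.37% of all genes. Without No MM 3 and No MM 4, edgeR called 0 of 10 and 0% of all tested genes at the adjusted threshold, and Ncr1 alone was higher at an unadjusted p under 0.05, against 2.51% of all tested genes. With all libraries, the log2 fold change was above 0 for 8 of the 10 genes, with a median of 0.36, beside 7664 of 16186 genes and a median of -0.03 over all tested genes. In no member did all 5 MM libraries lie above all 5 No MM libraries, a pattern seen in 0.729% of tested genes, or below them, as in 0.68%. In bulk RNA, a change in the number of lymphocytes and a change in the RNA of each cell cannot be told apart.

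**Figure D1:**
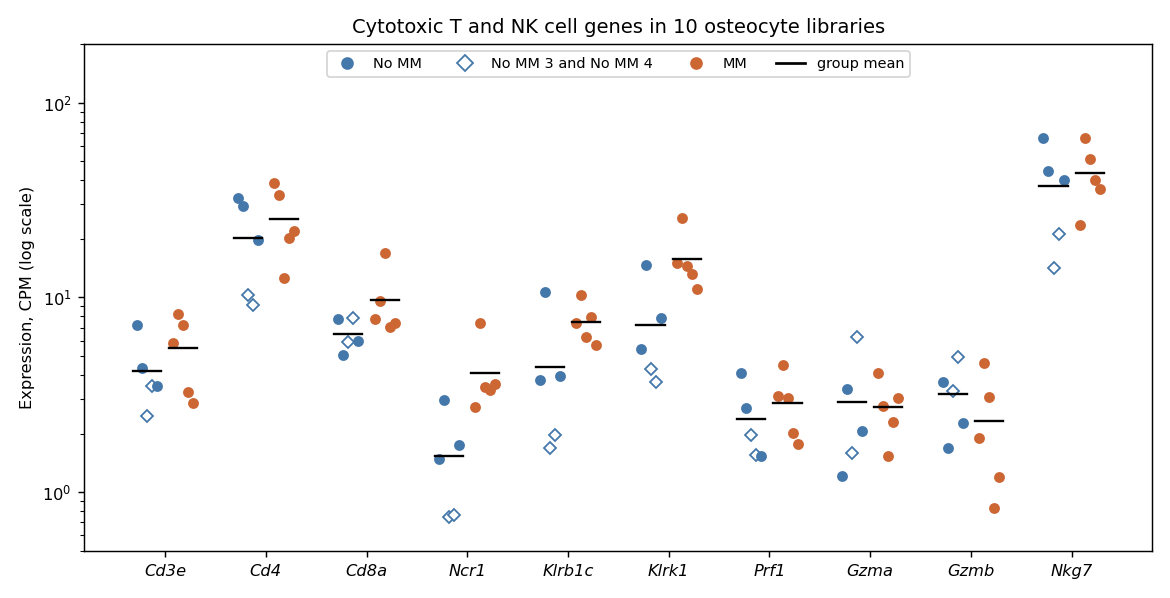
Level of each of the 10 genes in CPM (log scale) in the 5 No MM libraries (blue) and the 5 MM libraries (orange). Each point is 1 library, open diamonds are No MM 3 and No MM 4, and black bars are group means. Ncr1 ran from 0.743 to 2.98 CPM in No MM and from 2.74 to 7.35 CPM in MM, whereas both granzymes overlapped over most of their range.

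With all 10 libraries, the 3 NK receptors had the largest differences between the groups among the 10 genes. Without No MM 3 and No MM 4, Klrb1c (0.28) was below Cd8a (0.61) and Gzma (0.29), and without No MM 4 alone it was below Cd8a. Ncr1 (ENSMUSG00000062524, chromosome 7, 4337724 to 4345164, plus strand) encodes NKp46, an activating receptor that defines NK cells and related innate lymphoid cells. Its levels were 1.49, 2.98, 0.743, 0.762 and 1.74 CPM in No MM 1 to 5 and 2.74, 7.35, 3.47, 3.34 and 3.59 CPM in MM 6 to 10. Of the 5 MM libraries, 4 lay above the highest control, No MM 2, and the groups overlapped only through MM 6, at a lower level than No MM 2. The means were 1.54 ± 0.918 CPM in No MM and 4.10 ± 1.85 CPM in MM (SD, n = 5 each). The log2 fold change was 1.40 (SE 0.451), with an edgeR adjusted p of 0.315 and an unadjusted p of 0.00986. The exact two-sided permutation test of the same gene gave p = 0.0159 over all assignments of the libraries to 2 groups of 5, where the smallest possible p is 0.00794. Without No MM 3 and No MM 4 the log2 fold change of Ncr1 was 0.97 (unadjusted p = 0.0435), and over the 17 alternative settings its adjusted p ran from 0.0727 to 0.656.

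Klrk1 (ENSMUSG00000030149, chromosome 6, 129610323 to 129623864, minus strand) encodes NKG2D, an activating receptor of NK cells and CD8 T cells that reads stress-induced ligands. It stood at 5.45, 14.7, 4.30, 3.70 and 7.84 CPM in the No MM libraries in order and at 15.0, 25.5, 14.5, 13.1 and 11.1 CPM in the MM libraries. All 5 MM libraries exceeded the other 4 controls, and No MM 2 lay within the MM range. Its means were 7.19 ± 4.47 CPM in No MM and 15.8 ± 5.59 CPM in MM (SD, n = 5 each). The log2 fold change was 1.14 (SE 0.397), with an edgeR adjusted p of 0.315 and an unadjusted p of 0.0153. With No MM 3 and No MM 4 left out, the Klrk1 difference was 0.75 (unadjusted p = 0.0737), and without No MM 2 it was 1.56 (edgeR adjusted p = 0.196).

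Klrb1c (ENSMUSG00000030325, chromosome 6, 128778485 to 128789215, minus strand) encodes NK1.1, the antigen by which NK cells of C57BL/6 mice are usually stained, and its deposited span overlaps the annotated gene Gm44511 on the same strand. It measured 3.77, 10.7, 1.68, 1.96 and 3.94 CPM across No MM and 7.40, 10.3, 6.29, 7.94 and 5.67 CPM across MM. No MM 2 again was the high control, above every MM library, while the other 4 controls were below the lowest MM library. The group means were 4.41 ± 3.65 CPM in No MM and 7.52 ± 1.80 CPM in MM (SD, n = 5 each). The Klrb1c log2 fold change was 0.77 (SE 0.476), with an edgeR adjusted p of 0.468, and the value fell to 0.28 without No MM 3 and No MM 4. Leaving out No MM 2 instead gave a log2 fold change of 1.39 and an edgeR adjusted p of 0.196. Within MM, MM 7 was highest for all 3 receptors, while the lowest was MM 6 for Ncr1 and MM 10 for Klrk1 and Klrb1c. Among controls, all 3 had No MM 3 and No MM 4 lowest and No MM 2 highest. In those 2 lowest libraries plasma cell markers were high and neutrophil markers low, as given above, and their part in the NK receptor difference was not tested.

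The 200 bases upstream of the annotated start of each gene are shown for these 3 receptors (the first annotated start of Ncr1), whose levels moved together, and for Gzma, as a granule gene. The RefSeq start of Klrb1c lies inside the deposited span of the gene, downstream of its outer end, and the bases at this start are in 2 of its 4 transcripts in GENCODE M21. They were taken from RefSeq on GRCm38.p6, where 9 of the 10 genes had an entry and Cd4 had none. Each is written 5′ to 3′ on the strand of the gene, and capitals mark the letters TGTGGT or their reverse complement ACCACA, the core bound by RUNX factors, which act in cytotoxic lymphocytes.
Ncr1, chr7:4337515-4337714, plus strand: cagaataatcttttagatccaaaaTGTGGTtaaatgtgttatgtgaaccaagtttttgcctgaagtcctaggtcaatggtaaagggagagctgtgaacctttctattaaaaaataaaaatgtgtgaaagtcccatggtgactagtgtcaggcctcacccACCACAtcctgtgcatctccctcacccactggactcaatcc
Klrk1, chr6:129623865-129624064, minus strand: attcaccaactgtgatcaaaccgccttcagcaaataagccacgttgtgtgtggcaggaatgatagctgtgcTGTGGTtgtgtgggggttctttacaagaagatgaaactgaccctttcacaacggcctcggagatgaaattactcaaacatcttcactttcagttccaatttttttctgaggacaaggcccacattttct
Klrb1c, chr6:128788642-128788841, minus strand: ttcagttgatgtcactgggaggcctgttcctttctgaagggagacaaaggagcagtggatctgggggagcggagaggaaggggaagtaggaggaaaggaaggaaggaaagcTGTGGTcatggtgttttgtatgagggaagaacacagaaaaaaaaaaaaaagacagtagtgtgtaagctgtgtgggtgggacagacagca
Gzma, chr13:113100982-113101181, minus strand: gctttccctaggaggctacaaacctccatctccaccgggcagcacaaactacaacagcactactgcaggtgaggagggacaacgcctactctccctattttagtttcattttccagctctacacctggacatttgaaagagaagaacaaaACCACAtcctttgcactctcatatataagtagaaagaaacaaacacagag

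In the Ncr1 window the letters lie from base -176 to -171 and, reversed, from -41 to -36, counted from the start. The match lies from -129 to -124 for Klrk1, from -89 to -84 for Klrb1c and, reversed, from -50 to -45 for Gzma. Windows of Prf1, Gzmb and Nkg7 hold the same letters, so 7 of the 9 windows have a match and those of Cd3e and Cd8a have none. Of all 32505 promoter windows of this length, 11.0% hold these letters. CAGGAAG, the letters searched for ETS factors, occurs in 3 of the 9 windows and 9.02% of all, and GGTGTGA, searched for T-box factors, in the Nkg7 window and 2.64% of all. CAGCTG, searched for E-box proteins, occurs in 0 of the 9 and 10.9% of all. The bases at the starts used for Prf1 and Gzmb are in 0 of 2 and 0 of 1 of their transcripts in GENCODE M21. The Nkg7 window reaches into the deposited span of that gene, and its GGTGTGA match lies in that part. Both strands were searched, no match overlapped another, and a match describes letters and not binding. The letters stand before genes of both kinds, the NK receptors and the granule genes.

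Cd3e (ENSMUSG00000032093, chromosome 9, 44998743 to 45009590, minus strand) encodes the CD3 epsilon chain, which every T cell needs to bring its receptor to the surface. Reads of Cd3e can be shared with Gm48720, which overlaps it on the same strand in the annotation. Its levels were 7.24, 4.34, 2.46, 3.52 and 3.50 CPM in No MM and 5.85, 8.27, 7.23, 3.28 and 2.86 CPM in MM. No MM 1 was nearly as high as the upper MM libraries, and only MM 7 lay above the control range. The means were 4.21 ± 1.82 CPM in No MM and 5.50 ± 2.38 CPM in MM (SD, n = 5 each), and the log2 fold change was 0.39 (SE 0.391), with an edgeR adjusted p of 0.663. The Cd3e difference was 0.10 when No MM 3 and No MM 4 were left out.

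Cd8a (ENSMUSG00000053977, chromosome 6, 71373427 to 71379171, plus strand) encodes the alpha chain of CD8, carried by cytotoxic T cells and also by some dendritic cells. It was at 7.73, 5.07, 5.91, 7.84 and 6.00 CPM in No MM and 7.79, 9.59, 17.0, 7.03 and 7.36 CPM in MM. MM 8 stood far above the other libraries, while MM 6, MM 9 and MM 10 lay within the control range. The Cd8a means were 6.51 ± 1.22 CPM in No MM and 9.75 ± 4.15 CPM in MM (SD, n = 5 each). Its log2 fold change was 0.58 (SE 0.291), with an edgeR adjusted p of 0.390, and without No MM 3 and No MM 4 the value was 0.61. Among the 10 genes Cd8a was the one that DESeq2 added to Ncr1 and Klrk1 at an unadjusted p under 0.05, and without MM 8 its edgeR log2 fold change was 0.29. Cd8b1, the beta chain of the CD8 coreceptor of conventional cytotoxic T cells, had 5.10, 5.92, 8.51, 5.02 and 4.79 CPM in MM 6 to 10, so its value in MM 8 was also the highest of MM, and its log2 fold change was 0.32 (edgeR adjusted p = 0.654), or 0.07 without the 2 immunoglobulin-rich controls. Type 1 dendritic cell markers summed to 448 CPM in MM 8, the highest of the 10 libraries, and their part in the Cd8a level was not tested.

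Cd4 (ENSMUSG00000023274, chromosome 6, 124864692 to 124888221, minus strand) encodes the coreceptor of helper and regulatory T cells, and it is also expressed by some macrophages and dendritic cells. Its levels were 32.5, 29.6, 10.3, 9.11 and 19.7 CPM in No MM and 38.8, 33.7, 12.6, 20.2 and 21.8 CPM in MM. The controls No MM 3 and No MM 4 were lowest and the remaining libraries of both groups overlapped. The means were 20.2 ± 10.7 CPM in No MM and 25.4 ± 10.6 CPM in MM (SD, n = 5 each), with a log2 fold change of 0.33 (SE 0.412) and an edgeR adjusted p of 0.732. That difference was -0.12 without No MM 3 and No MM 4, on the other side of 0.

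With all 10 libraries, the granule genes showed smaller differences than the NK receptors, an order that did not hold for Gzma and Klrb1c without No MM 3 and No MM 4. Prf1 (ENSMUSG00000037202, chromosome 10, 61297836 to 61304263, plus strand) encodes perforin, the pore-forming protein of the granule. It measured 4.08, 2.70, 1.97, 1.56 and 1.54 CPM in No MM and 3.10, 4.49, 3.05, 2.01 and 1.77 CPM in MM, so that No MM 1 exceeded 4 of the 5 MM libraries. Its means were 2.37 ± 1.06 CPM in No MM and 2.88 ± 1.08 CPM in MM (SD, n = 5 each), and the log2 fold change was 0.28 (SE 0.376), with an edgeR adjusted p of 0.748. The Prf1 difference was 0.03 without No MM 3 and No MM 4.

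Gzma (ENSMUSG00000023132, chromosome 13, 113093825 to 113100979, minus strand) encodes granzyme A, a trypsin-like protease that is abundant in resting NK cells. Its levels were 1.22, 3.41, 1.58, 6.24 and 2.06 CPM in No MM and 4.11, 2.76, 1.54, 2.29 and 3.04 CPM in MM. The highest value was that of No MM 4 and the lowest that of No MM 1, with all MM libraries in between. The Gzma means were 2.90 ± 2.04 CPM in No MM and 2.75 ± 0.953 CPM in MM (SD, n = 5 each), and its log2 fold change was -0.08 (SE 0.466), with an edgeR adjusted p of 0.951. The sign changed to 0.29 without No MM 3 and No MM 4.

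Gzmb (ENSMUSG00000015437, chromosome 14, 56258856 to 56262260, minus strand) encodes granzyme B, which cleaves caspases and is made by activated cytotoxic cells and also by plasmacytoid dendritic cells. It stood at 3.69, 1.69, 3.30, 4.97 and 2.28 CPM in No MM and at 1.89, 4.59, 3.07, 0.827 and 1.20 CPM in MM. MM 9 and MM 10 were the 2 lowest libraries and MM 7 lay just below the highest control, No MM 4. The means were 3.19 ± 1.28 CPM in No MM and 2.32 ± 1.53 CPM in MM (SD, n = 5 each), and the Gzmb log2 fold change was -0.46 (SE 0.486), with an edgeR adjusted p of 0.678. It was -0.16 without No MM 3 and No MM 4. Plasmacytoid dendritic cell markers summed to between 190 and 317 CPM in No MM and between 139 and 258 CPM in MM, and their part in the Gzmb level was not tested.

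Nkg7 (ENSMUSG00000004612, chromosome 7, 43437073 to 43438246, plus strand) encodes a granule membrane protein that takes part in granule release. Its levels were 66.0, 44.8, 14.2, 21.2 and 40.2 CPM in No MM and 23.6, 66.2, 51.6, 39.9 and 35.9 CPM in MM. No MM 3 and No MM 4 were lowest, MM 6 was the next, and the highest library of each group stood at nearly the same level. The Nkg7 means were 37.3 ± 20.5 CPM in No MM and 43.4 ± 16.2 CPM in MM (SD, n = 5 each), and its log2 fold change was 0.22 (SE 0.401), with an edgeR adjusted p of 0.822. The difference turned to -0.24 without No MM 3 and No MM 4.

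**Figure D2:**
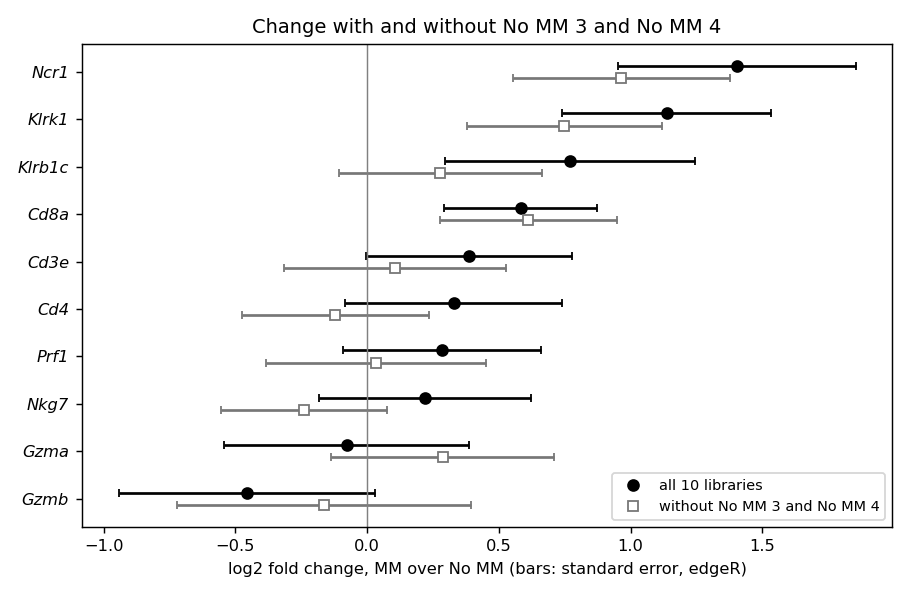
Log2 fold change of each of the 10 genes, MM over No MM, by edgeR with all 10 libraries (filled circles) and without No MM 3 and No MM 4 (open squares), with bars for the standard error. Ncr1 moved from 1.40 to 0.97 and Klrk1 from 1.14 to 0.75, while Cd4, Gzma and Nkg7 changed sign.

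Levels between genes were compared per kilobase of the deposited gene length. Nkg7 led in both groups, at 42.5 ± 23.3 CPM per kilobase in No MM and 49.5 ± 18.4 in MM (SD, n = 5 each), followed by Cd4 at 6.51 ± 3.46 and 8.18 ± 3.42. The ranges of these 2 genes did not overlap in either group. In No MM the order went on with Gzma, Cd3e, Klrk1, Gzmb, Cd8a, Klrb1c, Prf1 and Ncr1, from 3.31 down to 1.03 CPM per kilobase, and every neighbouring pair overlapped in range. In MM it went on with Klrk1, Cd3e, Gzma, Cd8a, Klrb1c, Ncr1, Gzmb and Prf1, from 4.95 down to 1.40 CPM per kilobase, again with overlap at each step. Ncr1, the lowest of the 10 in No MM, thus stood above both Gzmb and Prf1 in MM, and Klrk1 moved above Gzma and Cd3e.

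The ratio of 2 genes within a library does not depend on how the library was scaled, and 7 ratios of read counts were compared by exact two-sided permutation tests with adjustment over the 7. The log2 ratio of Ncr1 to Cd3e was -2.27, -0.54, -1.70, -2.18 and -1.01 in No MM 1 to 5 and -1.09, -0.17, -1.06, 0.02 and 0.33 in MM 6 to 10. All 5 MM libraries lay above the median of No MM, although the groups overlapped. The mean was -1.54 ± 0.75 in No MM and -0.39 ± 0.65 in MM, a difference of 1.15 (exact p = 0.0476, adjusted p = 0.167). For Prf1 to Ncr1 the log2 ratios were 1.44, -0.14, 1.39, 1.02 and -0.17 in No MM and 0.18, -0.71, -0.19, -0.73 and -1.02 in MM. All 5 MM libraries were below the median of No MM, and the mean difference was -1.20 (exact p = 0.0317, adjusted p = 0.167). These 2 ratios of NK receptor to T cell chain and of perforin to NK receptor had the lowest p-values, and neither passed the adjustment. With No MM 3 and No MM 4 left out, the differences were 0.88 for Ncr1 to Cd3e (adjusted exact p = 0.344) and -0.87 for Prf1 to Ncr1 (adjusted exact p = 0.312).

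The other 5 ratios differed by less than the spread between libraries. Cd8a to Cd4 differed by 0.11 on the log2 scale (exact p = 0.865), and its median count ratio was 0.305 in No MM and 0.338 in MM. Differences were -0.15 for Cd8b1 to Cd8a (exact p = 0.587), 0.16 for Cd8a to Cd3e (exact p = 0.611) and 0.05 for Cd4 to Cd3e (exact p = 0.913). Gzma to Gzmb differed by 0.73 (exact p = 0.317), with SDs of 1.04 in No MM and 1.20 in MM. Their adjusted p-values ran from 0.741 to 0.913. Leaving out No MM 3 and No MM 4 moved Cd8a to Cd4 to 0.75, Cd8b1 to Cd8a to -0.43, Cd8a to Cd3e to 0.50, Gzma to Gzmb to 0.68 and Cd4 to Cd3e to -0.25, with adjusted exact p-values of 0.312 to 0.768.

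**Figure D3:**
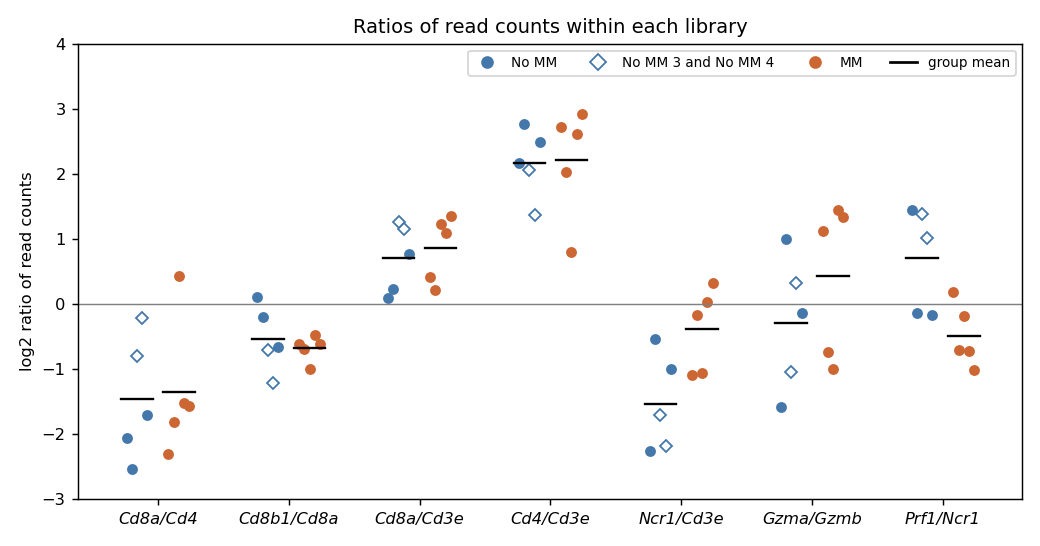
Log2 ratio of read counts for 7 pairs of genes, in No MM (blue, with open diamonds for No MM 3 and No MM 4) and MM (orange). Each point is 1 library and black bars are group means. The Ncr1 to Cd3e ratio averaged -1.54 in No MM and -0.39 in MM, with overlap between groups.

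Likeness between genes was described by Pearson's r of log2 CPM over the 10 libraries, which share their depth, preparation and the 2 immunoglobulin-rich controls. The 3 NK receptors were most alike, at r = 0.965 for Ncr1 and Klrk1, 0.946 for Klrb1c and Klrk1 and 0.924 for Ncr1 and Klrb1c. Over the 8 libraries without No MM 3 and No MM 4 these were 0.922, 0.892 and 0.778. Ranks were less alike, with Spearman's rho of 0.758, 0.903 and 0.745 for the same pairs over 10 libraries. Over the 8 libraries rho was 0.548, 0.833 and 0.5. Cd3e was nearest to Prf1 among the 10 genes, at r = 0.890 over 10 libraries and 0.930 over 8. In the 8 libraries Cd3e also stood at r = 0.865 with Gzmb. With the NK receptors Prf1 had lower values over 10 libraries, at r = 0.513 with Ncr1, 0.512 with Klrb1c and 0.517 with Klrk1. By Spearman's rho the gap was smaller for Klrk1, at 0.636 beside 0.794 for Cd3e. Differences between these values were not tested. Gzma was not above 0.0885 with any of the other 9 genes over the 10 libraries. Over the 8 libraries its highest values were 0.644 with Klrb1c, 0.592 with Klrk1, 0.451 with Cd4 and 0.429 with Ncr1.

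**Figure D4:**
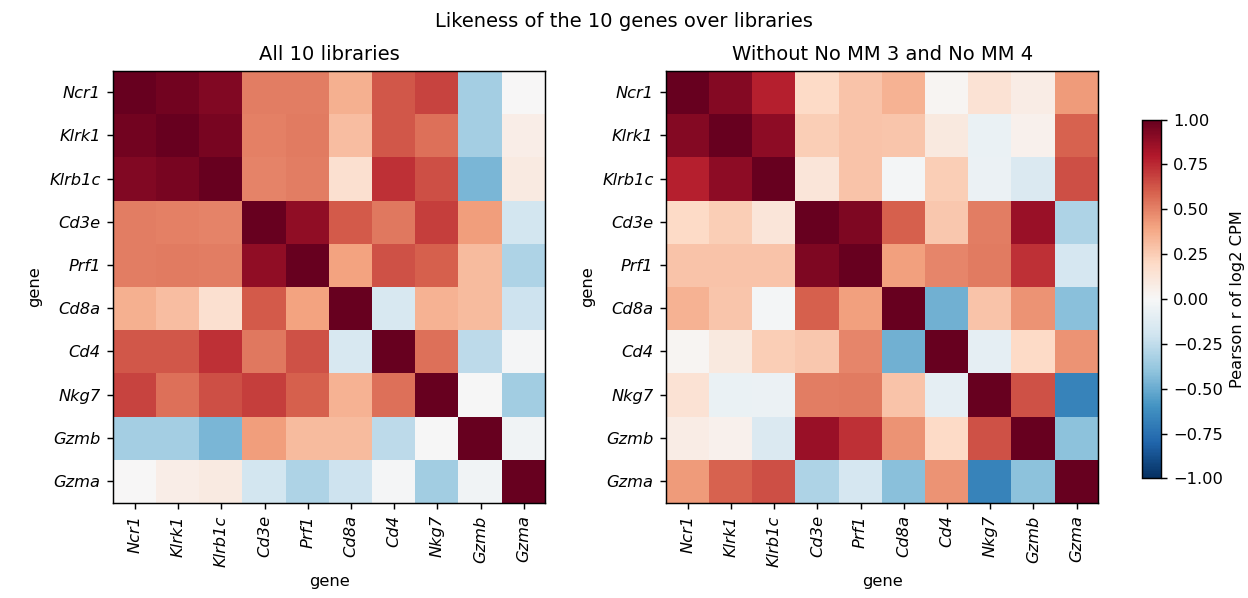
Pearson's r of log2 CPM between each pair of the 10 genes, over all 10 libraries (left) and without No MM 3 and No MM 4 (right), from blue (-1) to red (1). The block of Ncr1, Klrk1 and Klrb1c stayed between r = 0.778 and 0.922 without these 2 controls. Spearman's rho of these pairs, not drawn, then ran from 0.5 to 0.833.

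Among all 16186 tested genes, the 5 most like Cd3e were Trbc2 (r = 0.956), Cd3g (0.952), Gzmk (0.939), Zap70 (0.938) and Gm15433 (0.938). Trbc2 is a constant segment of the T cell receptor beta chain, Cd3g a CD3 chain, Gzmk granzyme K and Zap70 the kinase recruited to the receptor. Among those nearest to Ncr1 were Txk (0.974), a kinase of lymphocytes, Klrk1 (0.965), Cd27 (0.947), a costimulatory receptor, and Klhl18 (0.940). The nearest to Gzma were Fam161a (0.917), Gm17259 (0.884), Eid2b (0.883), Fam71e1 (0.858) and Camkv (0.856), and none of these 5 is in the T and NK cell lists used here.

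A wider count, chosen after these values were seen, asked how many of the 100 most alike genes belonged to the 10 genes or the 10 T and NK cell lists, which hold 0.692% of tested genes. There were 16 for Cd3e, 14 for Klrk1, 13 for Prf1, 12 for Ncr1 and 10 for Klrb1c. There were 3 each for Cd8a and Nkg7, 1 for Gzmb and 0 for Cd4 and Gzma. The 5 nearest to Nkg7 were Mpo (0.987), Kcnk12 (0.987), Plac8 (0.982), Gna15 (0.978) and Napsa (0.978), of which Mpo encodes the myeloperoxidase of neutrophil granules. Over 8 libraries Mpo remained at 0.967 with Nkg7. Gzmb was nearest to S1pr2 (0.953), followed by the interferon-induced genes Gbp2 (0.926), Cxcl10 (0.905) and Tgtp1 (0.902). The 5 nearest to Prf1 were Ccl19-ps1 (0.984), Ccl5 (0.958), Aif1 (0.954), Tigit (0.943) and H2-Eb1 (0.940). Of these, Ccl5 and Tigit are in the T and NK cell lists and the others are not. Klrb1c had Siglech (0.968), a marker of plasmacytoid dendritic cells, among its 5 nearest.

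Relations across libraries were tested for 6 pairs, with permutation p-values from 100000 resamples adjusted over the 6. Cd4 and the macrophage receptor Csf1r had r = 0.796 (permutation p = 0.00568, adjusted p = 0.0341) and rho = 0.697 (permutation p = 0.0301, adjusted p = 0.165). Without No MM 3 and No MM 4, the 2 libraries farthest from the median of Cd4, r fell to 0.408. What lay behind this fall was not tested. Cd3e and Cd8a had r = 0.617 (permutation p = 0.0410, adjusted p = 0.123) and rho = 0.636 (permutation p = 0.0550, adjusted p = 0.165), and r was 0.675 without the 2 farthest libraries. The remaining pairs were Cd3e with Cd4 (r = 0.524, rho = 0.552), Ncr1 with Prf1 (r = 0.513, rho = 0.370), Cd8a with Clec9a (r = 0.369, rho = 0.321) and Gzmb with Siglech (r = -0.469, rho = -0.467). Their permutation p-values ran from 0.123 to 0.285 for r, with adjusted values of 0.194 to 0.285, and from 0.106 to 0.368 for rho, with adjusted values of 0.212 to 0.368. Without the 2 farthest libraries r was 0.298, 0.283, 0.303 and -0.502 in the same order. Over the 8 libraries without No MM 3 and No MM 4, r was 0.595 for Cd3e with Cd8a, 0.270 for Cd3e with Cd4, 0.283 for Ncr1 with Prf1, 0.314 for Cd8a with Clec9a and -0.134 for Gzmb with Siglech.

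The rest of the pathway was described in 10 lists with 125 gene names, of which 112 were in the table and 102 were tested. None of the 102 passed an adjusted p under 0.05 by edgeR or DESeq2. Their counts at an unadjusted p under 0.05 stand beside the 3.81% higher and 10.3% lower of all tested genes. Counts above 0 stand beside 7664 of 16186 tested genes, and 8041 of 16600 without No MM 3 and No MM 4. Of 22 NK receptors and adaptors tested, all 22 had log2 fold changes above 0, from 0.19 to 1.57 with a median of 0.87, and 5 had an unadjusted p under 0.05. Among cell type markers, all 8 of neutrophils and all 7 of type 1 dendritic cells were also above 0. Of erythroid markers 2 of 6 were above 0, and of the 7 plasma cell markers none. Without No MM 3 and No MM 4, 19 of the 22 were above 0 and the median was 0.52. In that setting 1 of the 22 was higher at an unadjusted p under 0.05, against 2.51% of all tested genes. With 1 library left out, the number higher at this threshold ran from 2 to 12.

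Klrd1, the CD94 chain that pairs with NKG2 receptors, measured 0.876, 5.35, 1.81, 2.83 and 3.87 CPM in No MM and 6.62, 9.32, 8.96, 6.86 and 6.95 CPM in MM. Every MM library lay above every control, a pattern seen in 0.729% of all tested genes. The Klrd1 log2 fold change was 1.39 (SE 0.423), with an edgeR adjusted p of 0.315, or 1.18 without No MM 3 and No MM 4. Klrc2, the activating partner NKG2C, measured 0.0762, 1.75, 0.678, 0.798 and 0.784 CPM in No MM and 2.51, 3.11, 1.80, 2.78 and 1.93 CPM in MM, also without overlap and with 2 counts in No MM 1, below the limit of 3 counts. It had a log2 fold change of 1.56 (SE 0.558), an edgeR adjusted p of 0.315 and a value of 1.45 without those controls. Klrc1, Klra8 and Klre1 were the other 3 of these 5, at 0.80, 1.37 and 1.09, and at 0.60, 0.90 and 1.10 without them. By contrast, Hcst and Tyrobp, the DAP10 and DAP12 adaptors through which NKG2D and other receptors signal, were at 0.20 and 0.30, and at -0.35 and -0.23 without the 2 immunoglobulin-rich controls. Tyrobp had a mean of 353 CPM in No MM and 434 CPM in MM, and it is also a gene of myeloid cells.

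All 6 tested genes of the T cell receptor and CD3 complex had log2 fold changes above 0, from 0.12 to 0.52 with a median of 0.40, and none had an unadjusted p under 0.05. Cd3d was at 0.12, Cd3g at 0.39, Cd247, the zeta chain that NK cells use too, at 0.44 and Trac, the alpha chain constant segment, at 0.29. Without No MM 3 and No MM 4, 4 of the 6 were above 0 and the median was 0.24, with Cd3d at -0.32 and Trac at -0.15. Cd3d was also at -0.08 without MM 7. Among 18 genes of T cell surface, signaling and transcription, 17 were above 0, and the unadjusted p was under 0.05 for Il7r and Cd27 among the higher genes and for 1 lower gene, Cd28. When No MM 3 and No MM 4 were left out, 10 of the 18 were above 0, with a median of 0.07 and 1 higher at an unadjusted p under 0.05. Il7r, the interleukin-7 receptor of naive and memory lymphocytes, measured 11.5, 16.2, 4.04, 4.17 and 16.7 CPM in No MM and 17.0, 17.0, 29.5, 24.6 and 23.5 CPM in MM, with all MM libraries above all controls and a log2 fold change of 1.08 (edgeR adjusted p = 0.315), or 0.57 without the 2 controls. Cd28, a costimulatory receptor of T cells that plasma cells can also carry, measured 9.45, 7.46, 47.6, 102 and 17.5 CPM in No MM and 10.5, 9.05, 8.10, 5.18 and 21.6 CPM in MM. Its high values were those of No MM 3 and No MM 4, and its log2 fold change went from -1.75 to -0.09 without them.

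Of 12 lineage transcription factors and cytokine receptors, 10 were above 0, with a median of 0.62, and without No MM 3 and No MM 4 again 10, with a median of 0.40. Eomes and Tbx21, the T-box factors of NK and effector T cells, were at 0.78 (edgeR adjusted p = 0.395) and 0.79 (edgeR adjusted p = 0.445), and at 0.48 and 0.30 without these controls. Il18r1, the interleukin-18 receptor, was the gene of this list with an unadjusted p under 0.05, at 1.08, or 0.64 without them. For 12 tested genes of the granule and its release the median was 0.32, and 9 were above 0, beside a median of 0.14 and 9 of 13 tested without No MM 3 and No MM 4. Gzmk, granzyme K, was at 0.50 (edgeR adjusted p = 0.678) and at 0.17 without them, and Gzmc was not tested, with 6 to 15 counts per library in No MM and 0 to 6 in MM. Ctsw, a cysteine protease of cytotoxic granules, measured 13.8, 13.7, 92.0, 166 and 11.4 CPM in No MM and 18.6, 19.3, 14.5, 11.3 and 12.5 CPM in MM. As with Cd28, the high libraries were No MM 3 and No MM 4, and its log2 fold change of -1.96 became 0.21 without them.

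All 9 tested effector ligands and cytokines were above 0, with a median of 0.98. Without No MM 3 and No MM 4, 8 were above 0 and the median was 0.69. Tnf, Lta, Ccl3 and Xcl1 had an unadjusted p under 0.05 with all libraries. Without those 2 controls 2 of the 9 did, and with 1 library left out the number ran from 1 to 5. Lta, lymphotoxin alpha, was low throughout, at 0.419, 0.563, 0.0646, 0.254 and 0.539 CPM in No MM and 0.828, 1.97, 0.780, 1.02 and 0.859 CPM in MM, without overlap but with 2 counts in No MM 3, below the limit of 3 counts. Its log2 fold change was 1.55 (SE 0.507), with an edgeR adjusted p of 0.315, or 1.08 without No MM 3 and No MM 4. Ccl3, a chemokine of activated lymphocytes and macrophages, was at 1.62, with 29.0 CPM in MM 8 and 1.69 to 6.19 CPM in the other 9 libraries, and fell to 0.41 without MM 8. Fasl, the death ligand, was at 0.71 (edgeR adjusted p = 0.398), Ifng, interferon gamma, at 0.61 (0.612) and Ccl5 at 0.26 (0.819). Without MM 7, Ifng was at -0.09 and Ccl5 at -0.07, and without No MM 3 and No MM 4 the values of Fasl, Ifng and Ccl5 were 0.51, 0.67 and -0.06.

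Of 11 regulatory and inhibitory receptors, 9 were above 0, with a median of 0.63. With No MM 3 and No MM 4 left out, 8 were above 0, the median was 0.27 and none had an unadjusted p under 0.05. Ikzf2 and Ctla4 were higher at an unadjusted p under 0.05, at 1.06 and 0.98, and Entpd1 was lower, at -0.97, beside 0.86, 0.68 and -0.21 without those controls. Foxp3, the factor of regulatory T cells, was at 0.80 (edgeR adjusted p = 0.489), or 0.27 without them. Pdcd1, the inhibitory receptor PD-1, was at 0.84 (SE 0.856, edgeR adjusted p = 0.667), with 17.9 CPM in MM 8 and 8.38 CPM in No MM 1 and at most 4.49 CPM in the other 8 libraries. Its log2 fold change turned to -0.44 without MM 8. The 4 tested granzyme inhibitors had a median of 0.15, and the 5 tested genes of gamma delta T, NKT and innate lymphoid cells had a median of 0.47, with no unadjusted p under 0.05 in either list. These medians were 0.17 and 0.06 without No MM 3 and No MM 4.

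With all 10 libraries, the ligands that Klrk1 reads were the one T and NK cell list with no gene above 0. Their median was -1.57 over 3 tested genes. The 7 plasma cell markers, outside these lists, also had none above 0, with a median of -2.10. Raet1e measured 1.22, 0.873, 6.66, 6.86 and 0.858 CPM in No MM and 0.492, 1.11, 0.780, 0.992 and 1.17 CPM in MM, a log2 fold change of -1.85 (SE 0.669, edgeR adjusted p = 0.315). Raet1d was at -1.57 (SE 0.582, edgeR adjusted p = 0.315). Both were highest in No MM 3 and No MM 4, and without these libraries the values were -0.13 and -0.39. In that setting 1 of the 3 ligands was above 0, the median was -0.13 and 0 had an unadjusted p under 0.05. A relation of these ligands with Klrk1 was not tested.

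**Figure D5:**
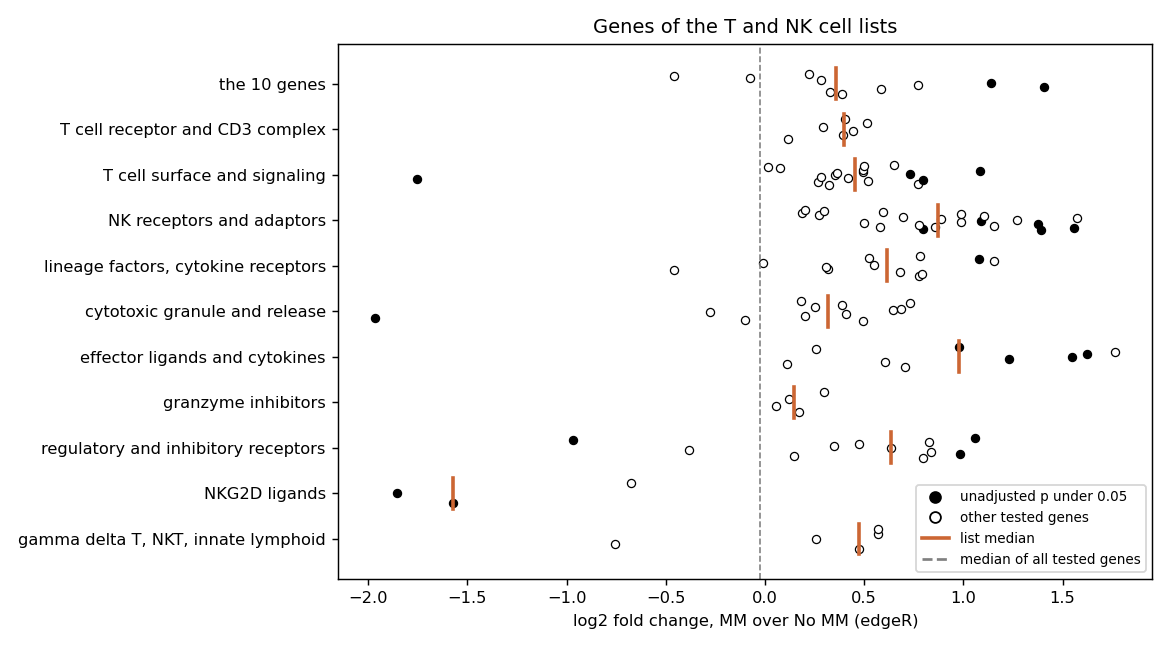
Log2 fold change, MM over No MM, of the tested genes of the 10 T and NK cell lists and of the 10 genes themselves. Points are genes, filled where the unadjusted p was under 0.05, orange bars are list medians and the dashed line is the median of all tested genes, -0.03. All 22 NK receptors and adaptors lie above 0, with a median of 0.87, beside 7664 of 16186 tested genes above 0.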

How the data were processed

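RNA-seq of osteocyte preparations was analyzed for 5 No MM and 5 MM mice, with 1 library per mouse and groups taken from the sample labels. The authors deposited whole-number read counts for 22548 genes, aligned with STAR after FastQC 0.11.5 per the labels. The counting program, annotation and build are not given in the sources used here. The kit keeps strand, but whether counting used it is not stated. The authors also deposited a normalized signal (each count divided by 1 size factor per library), FPKM values per gene length and library total, log2 fold changes, and p-values with adjusted p-values of their own comparison. These columns were checked and not analyzed. Total counts per library were between 31099174 and 39466332, and limits of 3 counts cover counting error only. Reads carried no molecular identifiers, so they need not be separate molecules. A match by identifier to GENCODE M21 (GRCm38) gave 22284 genes, 68.4% of them at the same position, so positions are those of the deposited table.

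Counts were filtered with filterByExpr, scaled by TMM and tested by glmQLFit and glmQLFTest of edgeR 4.0.16 in R 4.3.3, without covariates, with Benjamini-Hochberg adjustment over 16186 genes. Standard errors (SE) were derived as the absolute log2 fold change divided by the square root of the quasi-likelihood F statistic. Log2 CPM were computed with a prior count of 2, and ratios had 0.5 added to each count. Single values were compared by exact two-sided permutation tests over all assignments of libraries to groups of 5. The edgeR script was tested on simulated data first. Alternatives were DESeq2 1.42.0, RLE and upper quartile size factors, immunoglobulin genes left out, no filter, at least 10 counts in every library, No MM 3 and No MM 4 left out, and each library left out in turn.

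The 10 genes and all lists were chosen with earlier results of these data known. The text names the 10 genes, fixed partners, up to 2 genes per list with the largest change among those at an unadjusted p under 0.05, and the 5 genes most like Cd3e, Ncr1 and Gzma. The remaining genes of a list with an unadjusted p under 0.05, and the likeness of the other 7 genes, were added after their values were seen. A gene that these rules name is not reported here. Promoter letters were searched in 200 bases upstream of RefSeq starts (GRCm38.p6).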

Additional observations from a re-analysis of the deposited data

Results flagged for a closer look

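Within groups of 5 libraries, 34 sets of values were searched for a library whose gap to the nearest other library exceeded 0.71 of the range of its group. For normally distributed values, chance gives about 1 in 20 such sets, or 1.7 here, and 5 were found. The gene values were CPM without a log scale, and sets flagged in the same library are not independent. The count of 5 is therefore not read as an excess over 1.7. Ncr1 stood at 7.35 CPM in MM 7 and at 2.74 to 3.59 CPM in the other MM libraries. Klrk1 stood at 25.5 CPM in the same library, MM 7, and at 11.1 to 15.0 CPM in the others of MM. Klrb1c, the other NK receptor of the 10 genes, stood at 10.7 CPM in No MM 2 and at 1.68 to 3.94 CPM in the remaining controls. Cd8a stood at 17.0 CPM in MM 8 against 7.03 to 9.59 CPM in the rest of MM. The log2 ratio of Cd8a to Cd4 was 0.43 in MM 8 and between -2.31 and -1.52 in the other MM libraries.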

How the results depend on the processing

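No paired analysis was possible because mice are numbered 1 to 5 in one group and 6 to 10 in the other, so no number is shared. The count of called genes among the 10 was 0 in all 17 alternatives. The number of the 10 higher at an unadjusted p under 0.05 was 2, fell to 1 without No MM 3 and No MM 4 and ran from 2 to 3 with 1 library left out. Of 170 log2 fold changes of the 10 genes under alternatives, 164 kept their direction. The 6 that reversed were, without No MM 3 and No MM 4, Cd4 at -0.12, Gzma at 0.29 and Nkg7 at -0.24, and for Gzma also without No MM 2 (0.01), No MM 4 (0.41) and MM 8 (0.07), within a range of -0.27 to 0.41 with 1 library left out. The Klrb1c log2 fold change of 0.77 was 1.39 without No MM 2. Over the 10 lists, the 15 genes higher at an unadjusted p under 0.05 became 5 and the 5 lower genes became 0 without No MM 3 and No MM 4. With 1 library left out these counts ran from 6 to 27 and from 0 to 6, with 27 without No MM 2. Ratios that reversed were Cd4 to Cd3e, at -0.25 without No MM 3 and No MM 4, and with 1 library left out Cd4 to Cd3e (-0.15 to 0.40), Cd8a to Cd4 (-0.34 to 0.42) and Cd8b1 to Cd8a (-0.31 to 0.014). The relation of Cd4 with Csf1r lost its adjusted threshold without No MM 3 and No MM 4 (r = 0.41) and in 8 of 10 sets with 1 library left out (r from 0.69 to 0.93). Fewer libraries enter each of these settings, and causes beyond that were not tested. Ncr1, at 21 to 272 counts per library, had the fewest reads among the NK receptors of the 10 genes.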
